A study of Homo sapiens with 24 samples.

Results

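Chemokine receptors are G protein-coupled receptors that steer leukocytes along gradients of small secreted proteins, the chemokines. The 9 receptor genes CCR1, CCR2, CCR6, CCR7, CCR9, CCR10, CXCR3, CXCR4 and CXCR5 were selected by name. Every probe set annotated to such a gene alone was read, and probe sets with several symbols were not searched for these receptors. The choice was made with earlier results of these data known. They are 9 of the 18417 genes that had a probe set of their own. This gave 10 probe sets, 2 of them for CCR2, out of 21214 tested and 33297 in the table. RNA from the HapMap B-lymphoblastoid lines GM10855 and GM10861, B cells immortalised with Epstein-Barr virus, was hybridised to 24 Affymetrix arrays. Each line was sampled untreated at 0 h, after 36 h of calcitriol (hormonal vitamin D), after 36 h of estrogen and after 36 h of calcitriol and estrogen together, with 3 arrays per group and 8 groups. Nothing in the labels ties the 3 arrays of a group to separate cultures, and the spread behind each p-value may therefore be technical only. Untreated cells were taken at 0 h and all treated cells at 36 h, so that agent and culture time cannot be told apart against untreated cells, while treated groups set against each other share their time point. Each line comes from a single donor, and 2 lines do not sample the variation between people.

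In resting and activated B cells these receptors have distinct roles. CXCR5 and CCR7 pull B cells into follicles or toward the T cell zone, CXCR4 holds cells near sources of CXCL12 in bone marrow and germinal centre, and CCR10 and CXCR3 are carried by antibody-secreting and memory B cells that home to mucosa, skin or inflamed tissue. CCR6 marks memory and mucosal B cells, CCR9 guides lymphocytes to the small intestine, and CCR1 and CCR2 are best known from monocytes, which CCR2 draws out of the bone marrow. CCR7 was first isolated as a gene induced by Epstein-Barr virus.

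The windows upstream of the annotated start sites are shown for CCR2, which was lower with calcitriol, and for CXCR4, which was higher. The letters are those of the RefSeq promoter table on build GRCh38.p14, 250 bases ending at the base before the transcript start, written 5′ to 3′ on the strand of the gene. CCR2 lies on the plus strand at chr3:46353861-46354110, and the CXCR4 window is that of the most upstream of its starts, on the minus strand at chr2:136118150-136118399. Capitals mark TATAAA on either strand, 2 overlapping matches in the CXCR4 window, or any of 4 hexamers from which response elements of the vitamin D receptor are built. The first hexamer reads AGGTCA, the next reads AGTTCA, the third reads GGGTCA and the last reads GGTTCA, each searched on both strands.
CCR2: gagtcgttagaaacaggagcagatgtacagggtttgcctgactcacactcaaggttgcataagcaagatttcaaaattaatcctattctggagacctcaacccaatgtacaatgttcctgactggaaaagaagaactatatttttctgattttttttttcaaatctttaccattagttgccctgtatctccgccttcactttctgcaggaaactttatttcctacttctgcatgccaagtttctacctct
CXCR4: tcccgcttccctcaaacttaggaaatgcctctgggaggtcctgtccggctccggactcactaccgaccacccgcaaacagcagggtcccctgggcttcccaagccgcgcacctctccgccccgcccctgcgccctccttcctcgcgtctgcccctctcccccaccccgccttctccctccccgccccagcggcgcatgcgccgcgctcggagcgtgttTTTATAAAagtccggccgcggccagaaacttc
Neither printed window held such a hexamer on either strand, but another of the 3 CXCR4 windows, not printed, held 2. Of the 12 windows found for 7 of the 9 genes, 3 held at least 1 hexamer, where 33.8% of all 35116 windows of this length did. No window (0 of 12) held 2 of the hexamers in direct repeat with NNN between them, the arrangement that the vitamin D receptor binds with its partner RXR, which 0.0655% of all windows held. TATAAA was present in 2 of the 12 windows and in 10.7% of all. CCR7 and CCR10 were not among the matched genes. These are matches of letters in a short window, and no binding was measured.

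The arrays carried the B cell identity of the labels. The B cell genes MS4A1, which encodes CD20, and FCER2, the low-affinity IgE receptor, had mean log2 signals of 10.8 and 9.78, near percentiles 99.2 and 97.7 of the tested probe sets. The T cell genes CD3D, CD3E and CD3G lay at 4.62, 4.55 and 3.84, and 7 monocyte markers averaged between 4.18 and 4.49 on every array. Across the tested probe sets the correlation was 0.990 to 0.995 for arrays within a group and 0.972 to 0.979 for arrays of different lines, and 0 pairs were identical. Signals are on the log2 scale of RMA, the deposited normalisation, and a difference of 1 on it is a doubling. Across all arrays CCR7 (percentile 96.8), CCR10 (88.6), CXCR4 (83.0) and CXCR3 (69.6) gave the signals above the middle of all probe sets, and CCR6 lay at percentile 44.3. CCR9, CXCR5, the CCR2 probe sets and CCR1 lay between percentiles 15.2 and 20.1, where no detection p-value was at hand to tell a signal from noise and RMA compresses differences.

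Averaged over both lines, CCR2 was lower in cells that had received calcitriol, with or without estrogen, and CCR10 and CXCR4 were higher. In calcitriol against untreated cells, averaged over both lines, limma called 3 of the 10 probe sets, CCR10 and CXCR4 higher and 1 CCR2 probe set lower, beside a background of 0.679% of all probe sets called (0.618% higher, 0.0613% lower). The median change of the 10 was 0.06 against -0.001 for all probe sets. Because the receptors were chosen with earlier results of these data known, such counts describe them and do not test the family. When calcitriol was added to estrogen, a comparison at matched time that shares no array with the former, the same 3 were called in the same directions (background 0.754%; 0.679% higher and 0.0754% lower), with a median of 0.13 against -0.01. Leaving out a single array left between 1 and 3 calls in the former comparison and between 2 and 3 in the latter. Only 1 call was left in calcitriol against untreated without untreated array 2 of GM10855, without calcitriol array 3 of GM10855 or without calcitriol array 1 of GM10861.

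**Figure D1:**
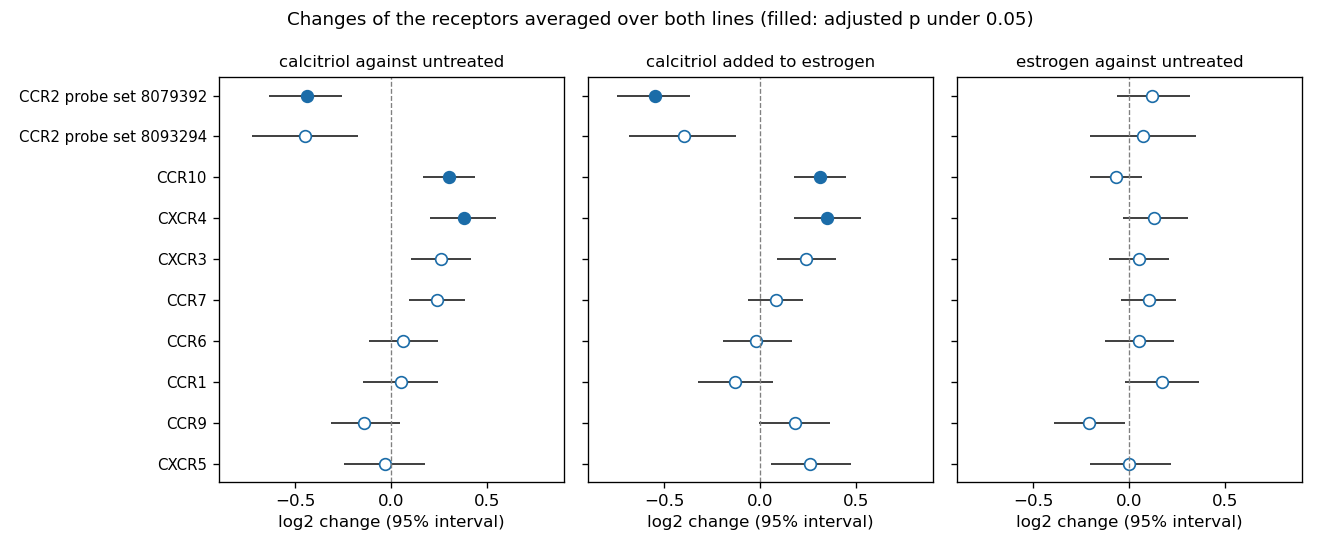
Log2 changes of the 10 receptor probe sets averaged over both lines (points) with 95% intervals from limma (lines) in 3 comparisons; filled points passed an adjusted p of 0.05 and the dashed line marks 0. The first CCR2 probe set lies at -0.44 and -0.55 in the comparisons that add calcitriol and at 0.12 with estrogen alone, and CCR10 (0.30 and 0.31) and CXCR4 (0.38 and 0.35) lie above 0 in the calcitriol comparisons.

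CCR2 encodes the receptor for the monocyte chemoattractants CCL2, CCL7 and CCL8. On its first probe set (8079392, Entrez 729230), the untreated arrays of GM10855 read 4.48, 4.26 and 4.69, and those with calcitriol 4.05, 4.0 and 4.17. In GM10861 the untreated arrays read 4.43, 4.49 and 4.53 and the calcitriol arrays 3.99, 4.05 and 3.96. The groups did not overlap in either line. The share of all probe sets that separated in this way was not counted, here or for the receptors below. With estrogen alone the signals were 4.89, 4.57 and 4.94 in GM10855 and 4.32, 4.64 and 4.28 in GM10861. With both agents they were 3.86, 4.34 and 4.02 in GM10855 and 4.15, 3.86 and 4.10 in GM10861. Over the 6 arrays with and the 6 without calcitriol, GM10861 separated fully, at 3.86 to 4.15 against 4.28 to 4.64. In GM10855 the ranges of 3.86 to 4.34 and 4.26 to 4.94 touched through 1 array with both agents and 1 untreated array.

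Ordered by mean, the first CCR2 probe set was highest in GM10855 with estrogen (4.80 ± 0.201, SD, n = 3). Untreated GM10861 (4.49 ± 0.05), untreated GM10855 (4.48 ± 0.217) and GM10861 with estrogen (4.41 ± 0.2) came next. The 4 groups with calcitriol followed at 4.07 ± 0.0893 and 4.07 ± 0.243 in GM10855 with calcitriol and with both agents, 4.03 ± 0.156 in GM10861 with both and 4.0 ± 0.0485 in GM10861 with calcitriol. Neighbours within these last 4 groups differed by less than their standard deviations, as did untreated GM10861, untreated GM10855 and GM10861 with estrogen. The second probe set, described below, had another order, lowest in GM10855 with calcitriol (3.59 ± 0.185) and then GM10855 with both agents (3.84 ± 0.205).

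The fall of the first CCR2 probe set was -0.44 ± 0.0899 (log2 change ± SE, 1.36-fold lower, 95% interval -0.63 to -0.26, adjusted p = 0.0131) in calcitriol against untreated. It was -0.55 ± 0.0899 (1.47-fold lower, -0.74 to -0.37, adjusted p = 0.00126) when calcitriol was added to estrogen. All 6 calcitriol arrays lay below the control mean of their line in each comparison. Calcitriol alone against estrogen alone, also at matched time, gave -0.57 (adjusted p = 0.00118), and both agents against untreated gave -0.43 (adjusted p = 0.0143). Estrogen alone gave 0.12 (95% interval -0.06 to 0.31, adjusted p = 0.978), estrogen added to calcitriol gave 0.02 (-0.17 to 0.20, adjusted p = 0.975), and the interaction of the agents was -0.11 (-0.37 to 0.16, adjusted p = 0.992). Calcitriol against estrogen and both agents against untreated share arrays with calcitriol against untreated and with calcitriol added to estrogen and are not separate evidence. The latter comparisons share no array with each other, but all comparisons share one estimate of the spread. The call against untreated was lost without untreated array 3 of GM10855 (-0.39, adjusted p = 0.0538). That of both agents against untreated was lost without array 1 of GM10855 with both agents (-0.37, adjusted p = 0.0578) or the one numbered 2 in GM10861 (-0.38, adjusted p = 0.0557). At matched time the call held whichever array was left out (adjusted p at most 0.00702).

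By line, the first CCR2 probe set changed by -0.40 in GM10855 and -0.48 in GM10861 with calcitriol against untreated, neither past the threshold by itself (adjusted p = 0.266 and 0.297). Added to estrogen, calcitriol gave -0.73 in GM10855 (adjusted p = 0.00355) and -0.38 in GM10861 (adjusted p = 0.637), and the difference between lines of 0.35 did not pass (95% interval -0.02 to 0.73, adjusted p = 0.752). In that comparison GM10855 had 1 of 10 receptor probe sets called, against 0.632% of all, and GM10861 had 0 (5 at an unadjusted p under 0.05), against 0.127% of all in limma. Untreated cells of the lines differed by 0.01 (-0.26 to 0.27). Estrogen alone against untreated gave 0.33 in GM10855 (95% interval 0.06 to 0.59, adjusted p = 0.638) and -0.08 in GM10861 (-0.34 to 0.19, adjusted p = 0.999). In GM10855 the -0.73 was thus read against an estrogen mean of 4.80 and the -0.40 against an untreated mean of 4.48. The groups of that line with calcitriol and with both agents each had a mean of 4.07.

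The second CCR2 probe set (8093294) is annotated to the same transcripts and followed the first, with a correlation of 0.88 over 24 arrays after subtraction of line means, 0.90 within GM10855 and 0.83 within GM10861. The points of that correlation share arrays and the calcitriol treatment. Its arrays scattered more. Untreated GM10855 read 3.96, 4.01 and 4.53 and calcitriol-treated GM10855 3.64, 3.38 and 3.74. In GM10861 the untreated arrays read 4.18, 4.40 and 4.17 and those with calcitriol 3.67, 4.17 and 3.95, which just meet at 4.17. Estrogen alone gave 4.63, 3.98 and 4.44 in GM10855 and 4.03, 4.63 and 3.97 in GM10861, and both agents 3.72, 4.08 and 3.72 in GM10855 and 4.12, 3.71 and 3.91 in GM10861. The change was -0.45 ± 0.132 with calcitriol (95% interval -0.72 to -0.18, adjusted p = 0.198) and -0.40 ± 0.132 with calcitriol added to estrogen (-0.68 to -0.13, adjusted p = 0.300), similar in size to the first probe set without passing. Against estrogen alone it was -0.52 (adjusted p = 0.0870), which passed only without array 2 of GM10855 with estrogen (-0.61, adjusted p = 0.0270). All 6 arrays lay below the control mean of their line in each of these comparisons.

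**Figure D2:**
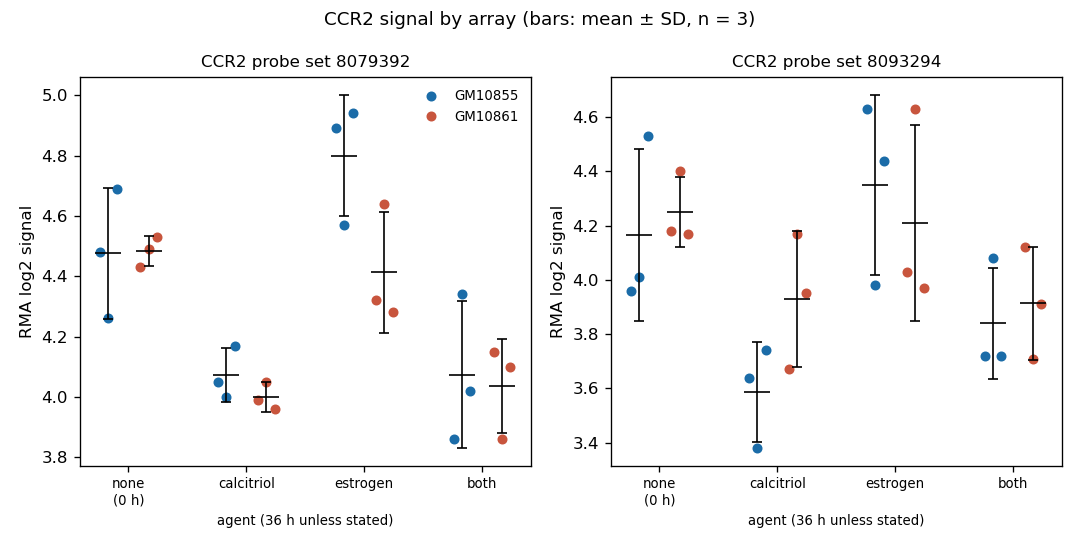
RMA log2 signal of the 2 CCR2 probe sets on each array (points; blue GM10855, red GM10861) by agent, with the mean and SD of the 3 arrays in black. On the first probe set the groups with calcitriol have means of 4.0 to 4.07 and the groups without it 4.41 to 4.80, and on the second the ranges of means are 3.59 to 3.93 and 4.17 to 4.35.

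CCR2 being a monocyte receptor, monocyte markers were read beside it. Of 7 measured, 0 were called in limma in either calcitriol comparison (0 and 1 at an unadjusted p under 0.05), beside 0.679% and 0.754% of all probe sets. Their mean signal ran from 4.39 to 4.47 in untreated GM10855 and 4.21 to 4.42 with calcitriol. In GM10861 it ran from 4.20 to 4.28 untreated and 4.22 to 4.32 with calcitriol, so that the ranges overlapped in both lines. CD14 changed by -0.04 with calcitriol and CSF1R, the receptor for macrophage colony-stimulating factor, by -0.14 (adjusted p = 0.990 and 0.814). CD163 gave 0.06 in that comparison (adjusted p = 0.973), and the median change of the 7 markers was 0. With calcitriol added to estrogen CD14 gave -0.20, CSF1R -0.10 and the calprotectin subunit gene S100A8 -0.20, in the direction of CCR2 and not past the threshold (adjusted p = 0.539, 0.806 and 0.674). CD163 went the other way at 0.11 (adjusted p = 0.793), and the median change of the 7 markers was -0.1. The mean of the 7 then ran from 4.32 to 4.49 with estrogen and 4.31 to 4.45 with both agents in GM10855, and from 4.20 to 4.41 and 4.18 to 4.25 in GM10861. The part of these markers in the CCR2 change was not tested. In these bulk samples fewer cells carrying a transcript and less of it per cell cannot be told apart. Other receptor genes of the chromosome 3 cluster that holds CCR2 did not pass in calcitriol against untreated. XCR1 gave -0.01, CXCR6 0.00, CCRL2 -0.10, CCR1 0.05 and CCR9 -0.14 there, and when calcitriol was added to estrogen -0.03, -0.01, -0.08, -0.13 and 0.18.

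CCR10 is the receptor for CCL27 of skin and CCL28 of mucosa and is carried by plasma cells that make IgA. It was higher with calcitriol. In GM10855 the untreated arrays read 8.12, 8.18 and 8.26 and the calcitriol arrays 8.52, 8.46 and 8.82. In GM10861 they read 7.67, 7.78 and 7.81 untreated and 7.95, 7.91 and 7.95 with calcitriol. Every calcitriol array lay above every untreated array of its line. Estrogen alone gave 8.08, 8.06 and 8.16 in GM10855 and 7.81, 7.51 and 7.77 in GM10861, and both agents 8.30, 8.37 and 8.27 and 8.03, 8.16 and 8.15. The 6 arrays with calcitriol thus lay above the 6 without it in each line, at 8.27 to 8.82 against 8.06 to 8.26 in GM10855 and 7.91 to 8.16 against 7.51 to 7.81 in GM10861. How many of all probe sets separated likewise was not counted.

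The rise of CCR10 was 0.30 ± 0.0635 (1.23-fold, 95% interval 0.17 to 0.43, adjusted p = 0.0208) with calcitriol and 0.31 ± 0.0635 (1.24-fold, 0.18 to 0.44, adjusted p = 0.0137) with calcitriol added to estrogen. Calcitriol alone against estrogen alone gave 0.37 (adjusted p = 0.00299), a comparison with 2 receptor probe sets called, CCR10 higher and CCR2 lower, against 0.570% of all probe sets (0.490% higher, 0.0801% lower). Both agents against untreated gave 0.24 and did not pass (adjusted p = 0.0683), and estrogen alone gave -0.07 (-0.20 to 0.06, adjusted p = 0.978). The call against untreated was lost in 6 of 12 fits that left out 1 array, namely untreated array 1 or 2 or calcitriol array 3 of GM10855 and untreated array 1 or calcitriol array 1 or 3 of GM10861 (adjusted p = 0.0528, 0.0542, 0.0772, 0.0719, 0.0621 and 0.0510). It was also lost in a fit of only the groups compared (adjusted p = 0.0826). At matched time it was kept in all 12 such fits (adjusted p at most 0.0497). In GM10855 the rise with calcitriol was 0.41 (adjusted p = 0.0317) and in GM10861 0.19 (adjusted p = 0.849), whereas with calcitriol added to estrogen it was 0.21 and 0.41 (adjusted p = 0.407 and 0.0878). Neither difference between lines passed (-0.22 and 0.20, adjusted p = 0.792 and 0.810).

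Plasma cell markers were read beside CCR10. Of 8 measured, 2 were called higher in both calcitriol comparisons, where 0.618% and 0.679% of all probe sets were. These were CD38, an ectoenzyme that hydrolyses NAD, at 1.0 and 0.99, and TNFRSF17, the survival receptor BCMA, at 0.67 and 0.68. The mean signal of all 8 ran from 9.13 to 9.29 in untreated GM10855 and 9.48 to 9.54 with calcitriol, and from 8.55 to 8.65 and 8.89 to 8.96 in GM10861. The other 6, PRDM1, XBP1, IRF4, MZB1, SDC1 and CD27, were not called, with changes of 0.02 to 0.28 with calcitriol and -0.01 to 0.20 with calcitriol added to estrogen. Among 9 B cell markers CD79A, CR2 and PAX5 were called higher in both comparisons, and 0 of 7 T cell and 0 of 6 NK cell markers were called in limma (0 and 1 T cell and 0 and 0 NK cell markers at an unadjusted p under 0.05). The part of these markers in the rise of CCR10 was not tested. The genes next to CCR10 on its chromosome, PLEKHH3 and CNTNAP1, had changes of -0.04 and 0.11 with calcitriol (adjusted p = 0.988 and 0.791).

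CXCR4, the receptor for CXCL12, was also higher with calcitriol. In GM10855 the untreated arrays read 5.90, 5.59 and 5.82 and the calcitriol arrays 6.30, 6.36 and 6.47, with no overlap. In GM10861 they read 9.04, 8.95 and 8.91 untreated and 9.22, 9.19 and 8.93 with calcitriol, the last within the untreated range. Estrogen alone gave 6.36, 6.02 and 5.84 in GM10855 and 8.88, 9.01 and 8.91 in GM10861, and both agents 6.64, 6.55 and 6.31 and 9.14, 9.22 and 9.26.

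Averaged over the lines, CXCR4 rose by 0.38 ± 0.0805 (1.30-fold, 95% interval 0.21 to 0.54, adjusted p = 0.0209) with calcitriol, by 0.35 ± 0.0805 (1.27-fold, 0.18 to 0.52, adjusted p = 0.0397) with calcitriol added to estrogen, and by 0.48 ± 0.0805 (1.40-fold, adjusted p = 0.00141) with both agents against untreated. Calcitriol alone against estrogen alone gave 0.24 and did not pass (adjusted p = 0.315). The first call was lost in 6 of 12 fits without 1 array (untreated array 2 or calcitriol array 3 of GM10855, untreated array 2 or 3 or calcitriol array 1 or 2 of GM10861; adjusted p up to 0.0906) and the second in 10 of 12, all but those without estrogen array 1 or combined-treatment array 3 of GM10855 (up to 0.136, when GM10855 array 1 of the combined treatment was left out), while the third was kept in all 12 (at most 0.00757). The second was also lost in a fit of only the groups compared (adjusted p = 0.129). In GM10855 the change was 0.61 with calcitriol (adjusted p = 0.00675) and 0.73 with both agents (adjusted p = 0.000631), and in GM10861 0.15 and 0.24 (adjusted p = 0.948 and 0.740). At matched time, with calcitriol added to estrogen, CXCR4 gave 0.43 in GM10855 and 0.27 in GM10861, and neither passed (adjusted p = 0.0959 and 0.874). Estrogen alone against untreated gave 0.13 averaged over the lines (95% interval -0.03 to 0.30, adjusted p = 0.962). It gave 0.30 in GM10855 (0.07 to 0.54, adjusted p = 0.638) and -0.03 in GM10861 (-0.27 to 0.20, adjusted p = 0.999). Calcitriol against untreated in GM10855 called CCR10 and CXCR4, 2 of 10, with a background of 0.509%, and both agents called 1 of 10 with a background of 2.33%. In GM10861 these comparisons called 0 of 10 in limma (1 and 5 at an unadjusted p under 0.05), with backgrounds of 0.104% and 0.184%. In GM10855 calcitriol against estrogen called CCR2 at -0.73 and CCR10 at 0.50 (background 0.580%), in GM10861 0 of the 10 (2 at an unadjusted p under 0.05 in limma; background 0.0848%), and estrogen added to calcitriol called 0 in GM10855 (2 likewise; background 0.0519%). For CXCR4 the difference between lines did not pass in calcitriol against untreated or in both agents against untreated (-0.46, 95% interval -0.79 to -0.13, adjusted p = 0.636, and -0.49, -0.83 to -0.16, adjusted p = 0.250).

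CXCR3, the receptor for the interferon-induced chemokines CXCL9, CXCL10 and CXCL11, passed in 1 comparison. It read 6.24, 6.42 and 6.43 in untreated GM10855 and 6.75, 6.69 and 6.53 with both agents, and 6.86, 6.81 and 6.85 in untreated GM10861 and 7.28, 7.10 and 6.99 with both. The groups did not overlap, and the mean rise was 0.29 ± 0.0718 (1.22-fold, adjusted p = 0.0479). Both agents against untreated called 3 of the 10 receptor probe sets, CXCR3 and CXCR4 higher and the first CCR2 probe set lower, against 1.15% of all (0.995% higher, 0.151% lower). The count fell to 1 without array 1 of GM10855 or array 2 of GM10861 of the combined treatment. The CXCR3 call was lost in 10 of 12 fits without 1 array, all but those without array 3 of the combined treatment in either line (adjusted p up to 0.158, when GM10861 array 1 of the combined treatment was left out). With calcitriol it changed by 0.26 (adjusted p = 0.150) and with calcitriol added to estrogen by 0.24 (adjusted p = 0.218). Its calcitriol arrays read 6.79, 6.85 and 6.55 in GM10855 and 6.99, 7.18 and 6.81 in GM10861, and its estrogen arrays 6.51, 6.51 and 6.32 and 6.88, 6.77 and 6.92.

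CCR7, the receptor for CCL19 and CCL21, had a change of 0.24 ± 0.0669 with calcitriol that did not pass (95% interval 0.10 to 0.38, adjusted p = 0.159). It passed without untreated array 1 of GM10855 (adjusted p = 0.0336), with variance trend and robust estimation (adjusted p = 0.0365) and with array weights (adjusted p = 0.0419). GM10855 read 8.77, 8.41 and 8.56 untreated and 9.0, 9.03 and 8.91 with calcitriol, without overlap. GM10861 read 9.97, 9.99 and 9.99 untreated and 10.11, 10.07 and 10.01 with calcitriol. With calcitriol added to estrogen the change was 0.08 (-0.06 to 0.22, adjusted p = 0.844), and the calcitriol comparisons share no array.

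**Figure D3:**
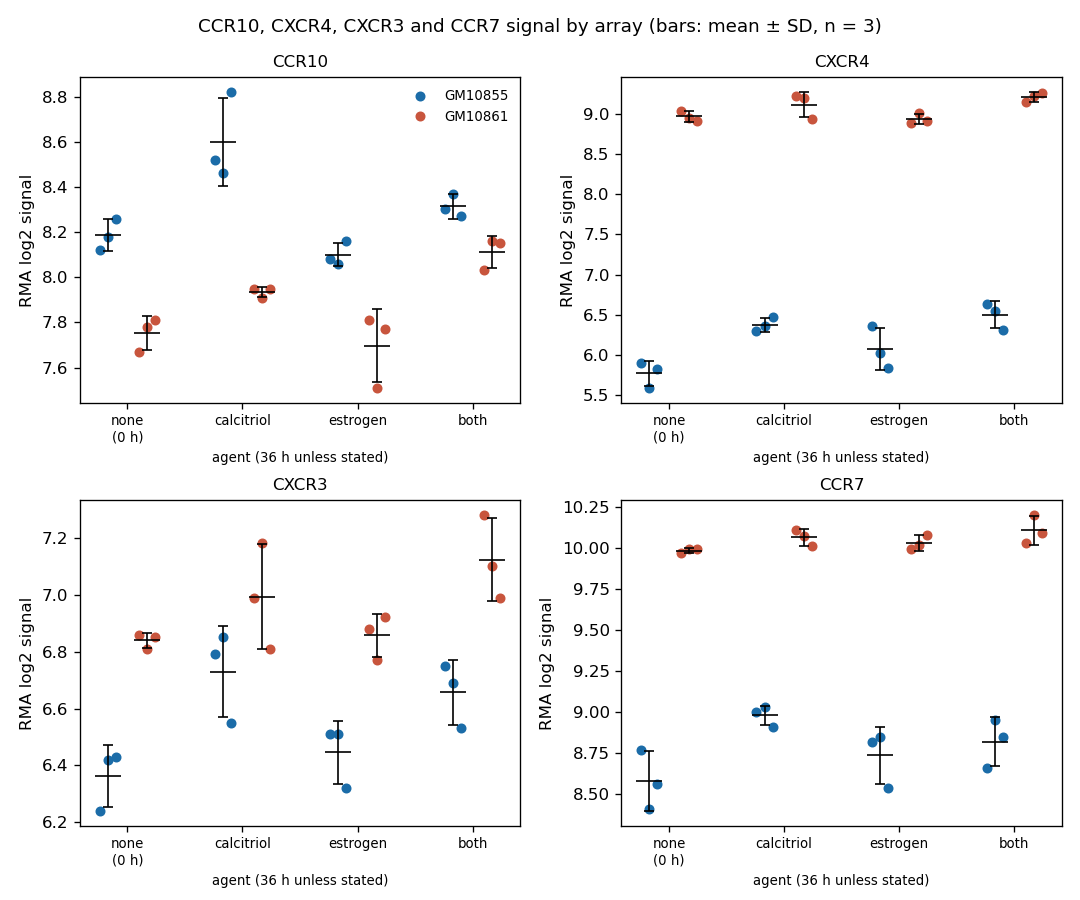
RMA log2 signal of CCR10, CXCR4, CXCR3 and CCR7 on each array (points; blue GM10855, red GM10861) by agent, with the mean and SD of the 3 arrays in black; each panel has its own axis. CCR10 is higher on all arrays with calcitriol within each line, and CXCR4 and CCR7 show the wide gap between the lines.

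CCR6, CCR1, CCR9 and CXCR5 were called in no agent comparison averaged over the lines (0 of 4 in limma in each), although CCR9 and CXCR5 had unadjusted p-values under 0.05 in some. CCR6, the receptor for CCL20, ran from 5.85 to 6.30 over the 12 arrays of GM10855 and from 4.84 to 5.30 over those of GM10861, with changes of 0.06 and -0.02 in the calcitriol comparisons (95% intervals -0.11 to 0.24 and -0.19 to 0.16). CCR1, a receptor for CCL3 and CCL5, changed by 0.05 and -0.13 (-0.14 to 0.24 and -0.32 to 0.06). CCR9, the receptor for CCL25, changed by -0.14 and 0.18, in opposite directions, and by -0.21 with estrogen (-0.39 to -0.03, adjusted p = 0.920). CXCR5, the receptor for CXCL13, changed by -0.03 with calcitriol and by 0.26 with calcitriol added to estrogen (0.06 to 0.47, adjusted p = 0.433). Its lines went apart with calcitriol, GM10855 from 4.52, 4.34 and 4.58 to 4.06, 4.09 and 4.31 and GM10861 from 3.87, 4.30 and 4.31 to 4.49, 4.41 and 4.36. That difference between lines of 0.59 did not pass (adjusted p = 0.589).

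**Figure D4:**
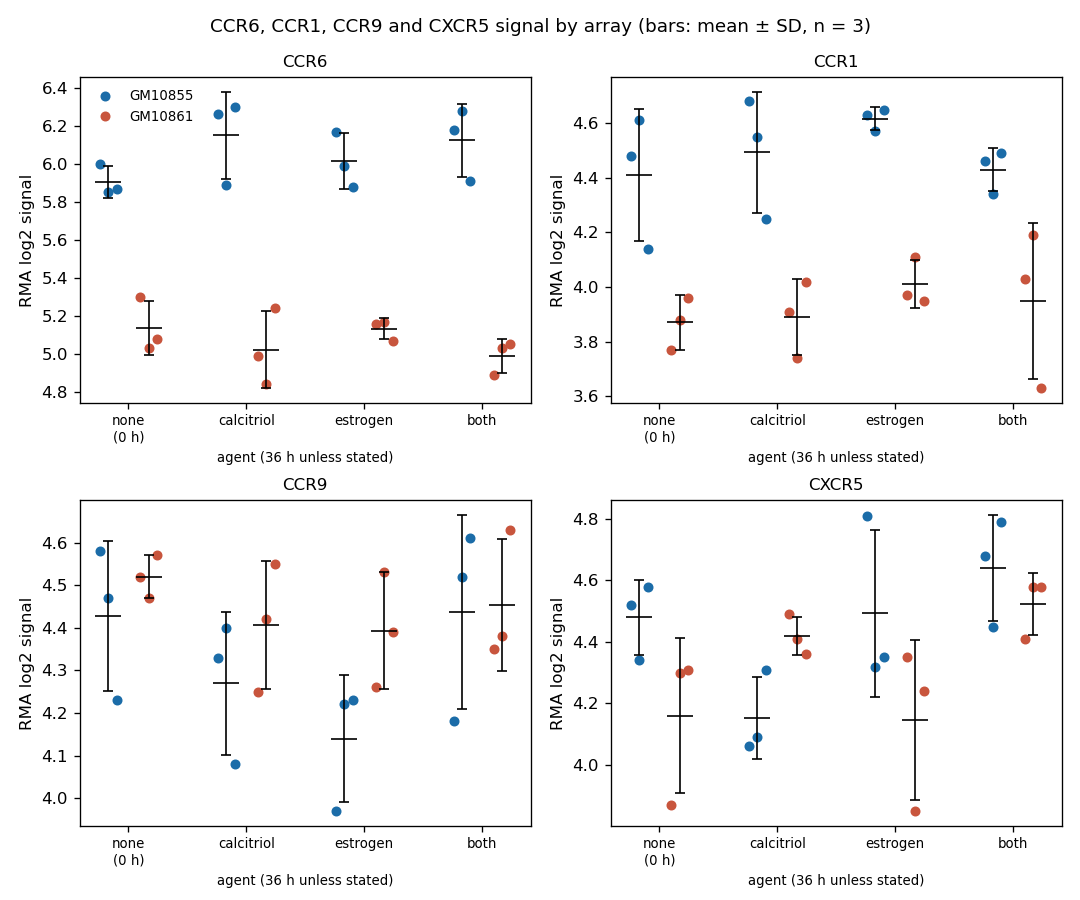
RMA log2 signal of CCR6, CCR1, CCR9 and CXCR5 on each array (points; blue GM10855, red GM10861) by agent, with the mean and SD of the 3 arrays in black; each panel has its own axis. CCR6 lies at 5.85 to 6.30 in GM10855 and at 4.84 to 5.30 in GM10861, CCR1 is lower in GM10861 with ranges that meet, and CCR9 and CXCR5 overlap between the lines.

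In estrogen against untreated, in estrogen added to calcitriol and in the interaction of the agents, limma called 0 of the 10 probe sets, and 0% of all probe sets. At an unadjusted p under 0.05 there were 1, 1 and 2 of the 10, and 1097, 1772 and 935 of all 21214. The smallest adjusted p among the 10 was 0.920, 0.463 and 0.992. A typical probe set had an unadjusted 95% interval of 0.154 on either side of a change averaged over the lines, and adjustment over all probe sets left larger estrogen changes uncalled too, such as CCL25 at -0.29 (adjusted p = 0.786). Differences between the lines in response were called for 0 of the 10 in all 6 agent comparisons in limma. At an unadjusted p under 0.05 there were 4 for calcitriol against untreated, 0 for calcitriol added to estrogen, 2 for estrogen, 2 for both agents against untreated, 1 for estrogen added to calcitriol and 1 for calcitriol against estrogen. The background was 0.00943% of all probe sets called for calcitriol against untreated, 0.00471% for calcitriol added to estrogen, 0.0141% for both agents against untreated, 0.0236% for calcitriol against estrogen and 0% for estrogen in either setting.

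More probe sets were called between the untreated lines than in any agent comparison, among the 10 and among all. The first CCR2 probe set went the other way, with 0.01 between the lines and -0.44 in calcitriol against untreated. In untreated cells 6 of the 10 receptor probe sets were called between GM10861 and GM10855, 3 in each direction, where 24.3% of all probe sets were (16.2% higher and 8.15% lower in GM10861). CXCR4 was higher in GM10861, at a mean of 8.97 ± 0.0675 against 5.77 ± 0.161 (SD, n = 3), a difference of 3.20 ± 0.114 or 9.17-fold (adjusted p = 5.04e-16). CCR7 was higher by 1.40 ± 0.0946 or 2.64-fold (9.98 ± 0.0129 against 8.58 ± 0.182, adjusted p = 6.34e-11), and CXCR3 by 0.47 ± 0.102 (adjusted p = 0.0011). The receptors lower in GM10861 were CCR6 (-0.77, 5.14 ± 0.143 against 5.91 ± 0.0836, adjusted p = 2.61e-05), CCR1 (-0.54, adjusted p = 0.0031) and CCR10 (-0.44, adjusted p = 0.000685). CXCR5 (-0.32, adjusted p = 0.0992), CCR9 (0.09) and the CCR2 probe sets (0.01 and 0.09) did not pass. The calls of all 6 were kept whichever untreated array was left out. For CXCR4, the gap between lines exceeded the change seen with any agent in either line, the largest being 0.73. Plasma cell markers differed between the lines as well, with 6 of 8 lower in GM10861, among them CD27 (-1.14), CD38 (-1.08) and PRDM1 (-0.94), the repressor that drives plasma cell formation, and their part in the receptor differences was not tested.

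**Figure D5:**
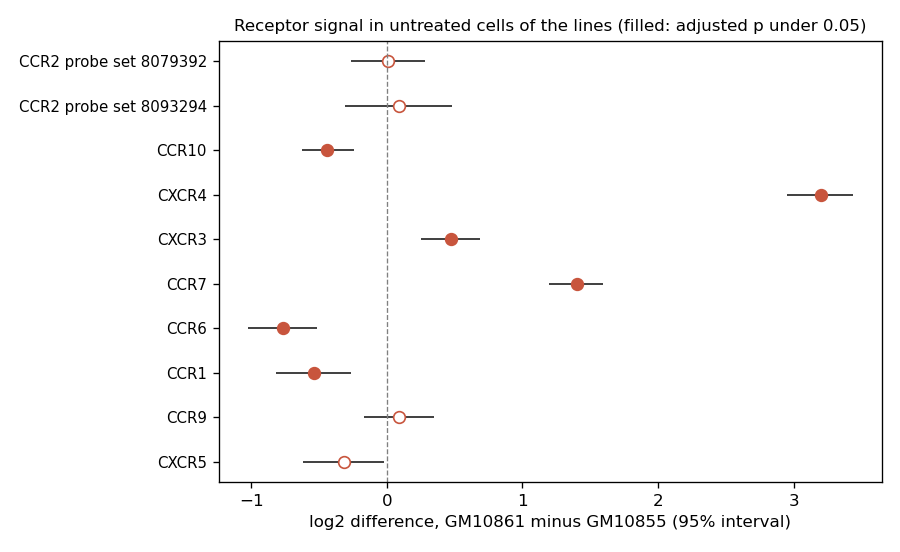
Log2 difference in untreated signal between the lines, GM10861 minus GM10855, for the 10 receptor probe sets (points) with 95% intervals from limma (lines); filled points passed an adjusted p of 0.05 and the dashed line marks 0. CXCR4 stands out at 3.20 and CCR7 at 1.40, while CCR6, CCR1 and CCR10 lie below 0.

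Few genes of the wider chemokine system were called with the agents, as was so for all probe sets. The background was 0.679% in calcitriol against untreated, 0.754% with calcitriol added to estrogen and 1.15% in both agents against untreated. At such shares a short list holds few calls, so that 0 calls do not set it apart. Of 12 other chemokine receptors measured, 0 were called in either calcitriol comparison or in both agents against untreated (1, 1 and 2 at an unadjusted p under 0.05 in limma). CCR8, a receptor of skin-homing and regulatory T cells, had the smallest p in calcitriol against untreated (0.25, adjusted p = 0.342). Of 16 ligands of the 9 receptors, 0 were called in either calcitriol comparison (2 and 2 at an unadjusted p under 0.05). CXCL10, a ligand of CXCR3, gave -0.25 and -0.36 (adjusted p = 0.770 and 0.361), and the CCR2 ligands CCL2 and CCL7 gave 0.09 and 0.05 with calcitriol. With both agents against untreated 1 ligand was called, CCL25, the ligand of CCR9, at -0.42 ± 0.0902 (adjusted p = 0.0155), with -0.26 for calcitriol and -0.29 for estrogen alone, neither past the threshold.

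Genes that act below or beside the receptors were likewise mostly outside the threshold, as were most of all probe sets (0.679% and 0.754% called in the calcitriol comparisons). Of 20 signalling genes and 14 desensitisation genes, 0 were called in calcitriol against untreated and 0 in calcitriol added to estrogen (5 and 2, and 3 and 3, at an unadjusted p under 0.05 in limma). RAC2, a GTPase of leukocyte movement, gave 0.27 and 0.18, VAV1, which activates such GTPases, 0.22 and 0.06, and RGS3, which shortens G protein signals, 0.19 and 0.19. Of 14 other migration and adhesion receptors, 1 rose in both calcitriol comparisons. This was P2RY8, a receptor that confines B cells to the germinal centre, at 0.43 ± 0.0711 (adjusted p = 0.00139) and 0.38 ± 0.0711 (adjusted p = 0.00536). The sphingosine-1-phosphate receptor S1PR1 and the oxysterol receptor GPR183 gave 0.10 and 0.03 with calcitriol, and the integrin chain ITGB7 0.19 (adjusted p = 0.103).

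Between the untreated lines, ligands differed along with receptors. Of the 16 ligands 7 were called, beside 24.3% of all probe sets. CCL28 was higher in GM10861 by 1.02 and 6 were lower, among them CXCL10 by -1.75 (5.39 against 7.14), CCL25 by -1.10 and CXCL9 by -0.96. Among called pairs of receptor and ligand, CXCR3 with CXCL9 and CXCL10, CXCR4 with CXCL12 (-0.31) and CCR10 with CCL28 differed between lines in opposite directions. CCR6 with CCL20 (-0.51) and CCR1 with CCL3 (-0.49) were lower in GM10861 together. Of these ligands CXCL9, CXCL12, CCL20 and CCL28 were dim, at percentiles 8.4, 16, 16.4 and 25.4 of the tested probe sets. Such signals may not be told from noise, and CXCL10 (57.8) and CCL3 (90.9) were brighter. A link between receptor and ligand levels was not tested. S1PR1 and GPR183 were higher in GM10861 by 0.65 and 0.63, and the integrin chain ITGB1 lower by 1.32 on the log2 scale (-1.32).

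The genes whose pattern lay closest to a receptor were found by Pearson correlation over the 24 arrays, each value taken relative to the mean of its line. These correlations share the arrays and the treatments and are given as a description. For the first CCR2 probe set they were HMCES (0.79), a sensor of abasic DNA sites, ACOXL (0.74), FRMD6 (0.74), the calpain CAPN2 (0.74) and the ciliary transport gene IFT122 (0.73). Of these, FRMD6 was called with calcitriol (-0.34, adjusted p = 0.0258) and HMCES with calcitriol added to estrogen (-0.25, adjusted p = 0.0302). For CCR10 they were G0S2 (0.87), an inhibitor of the lipase ATGL, ITM2C (0.87), the choline transporter-like gene SLC44A2 (0.85), the lysosomal protease CTSZ (0.82) and CD79A (0.81), a chain of the B cell receptor complex, all of which were called higher in both calcitriol comparisons. ITM2C rose by 0.70 and 0.66, and CTSZ by 0.71 and 0.43. For CXCR4 they were ABCB4 (0.89), a phospholipid transporter, ACSL1 (0.88), which activates long-chain fatty acids, SCYL2 (0.87), the complement receptor CR2 (0.87) and TNFSF4 (0.86), the ligand of OX40, and these too were called higher in both. The likeness of ABCB4 to CXCR4 was closer within GM10855 (0.96) than within GM10861 (0.75). For CXCR3 they were the steroid sulfatase STS (0.77), CD84 (0.77), the decoy receptor IL1R2 (0.77), LAMP3 (0.76) and MOB3B (0.75).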

How the data were processed

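The authors deposited log2 signals per probe set; the submitters' processing notes name RMA and Expression Console 1.0.1 of Affymetrix; neither the set of arrays normalised jointly nor the build or annotation is named by a label or header. Because RMA equalises the distributions, shifts common to most genes are lost, and folds of dim probe sets are compressed. Precision is limited by how many arrays there are.

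A probe table supplied the gene names: 19460 probe sets had 1 symbol, 1754 several and 12083 none. Of the first, 19429 were updated through Entrez IDs of GRCh38.p14. In R 4.3.3, limma 3.58.1 was fitted to the 21214 probe sets with a symbol, with 1 mean per group over all 24 arrays and eBayes (16 residual and 6.73 prior degrees of freedom). Contrasts averaged both lines or took each line. P-values are two-sided, Benjamini-Hochberg adjusted over all 21214, and called under 0.05. The procedure was tested on simulated data.

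Receptors and lists were chosen with earlier results of these data known. Lists used 1 probe set per gene, the brightest. Named were all receptor probe sets, called list genes, list genes with the 4 smallest p, and the 5 genes most like each called receptor; pseudogenes and Y-linked genes were left out. The cell type markers named, XCR1, CXCR6, CCL2, S1PR1, GPR183, the neighbours of CCR10, and CCL7 with calcitriol were added after their values were seen. Alternatives were a filter on dim probe sets, all probe sets, median centring, cyclic loess, trend with robust estimation, array weights, only the groups compared, and leaving out each array.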

Additional observations from a re-analysis of the deposited data

Results flagged for a closer look

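The B cell gene CD79A, 1 of the 5 genes closest in pattern to CCR10, responded differently in the lines in calcitriol against estrogen. Receptors and list genes were searched for such differences in all 6 agent comparisons. No other gene was called, and CD79A was called in no other comparison. In calcitriol against estrogen its rise was 1.18 ± 0.0884 (log2 change ± SE) in GM10855 and 0.46 ± 0.0884 in GM10861, and the difference of -0.73 ± 0.125 passed limma's test (adjusted p = 0.0326). No receptor probe set (0 of 10) passed that test in any of the 6 agent comparisons.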

How the results depend on the processing

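No paired analysis was possible because the labels give the arrays running numbers that are not shared between groups. No value past the threshold changed sign under any alternative (0 reversed), including median centring and cyclic loess. The filter on dim probe sets, at a mean log2 signal of at least 5, left out CCR1, CCR2, CCR9 and CXCR5. The calls of CCR2 and CCR1 were thereby removed from every comparison that held them. In calcitriol against estrogen this brought the count of receptor probe sets called from 2 to 1. Without single arrays, the counts ran from 1 to 3 in calcitriol against untreated, 2 to 3 in calcitriol added to estrogen, 1 to 3 in both agents against untreated and 2 to 3 in calcitriol against estrogen, and stayed at 6 between the untreated lines and at 0 in limma with estrogen, estrogen added to calcitriol and the interaction. With all probe sets tested, CXCR4 lost its calls in calcitriol against untreated (adjusted p = 0.0563) and in calcitriol added to estrogen (adjusted p = 0.0912; with array weights 0.0577), and CXCR3 lost its call in both agents against untreated with all probe sets (0.0816), cyclic loess (0.0572), array weights (0.0809) or only the groups compared (0.0749). CCR10 gained a call in both agents against untreated with the filter (0.0377) or with trend and robust estimation (0.0228). The cause of these changes was not tested.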
